A study of Mus musculus with 3 samples.

Results

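The 8 genes described here make up the core of the corticosteroid response system in the mouse dentate gyrus, the part of the hippocampus where granule cells lie. They are the receptor genes Nr3c2 and Nr3c1, the steroid-converting enzyme genes Hsd11b1 and Hsd11b2, the receptor cochaperone genes Fkbp5 and Fkbp4, and the response genes Sgk1 and Tsc22d3. They were taken by symbol from the 33101 gene names that carried a value in the deposited table, and all 8 symbols were found, each on 1 row. The series held 1 group of 3 libraries of polyadenylated RNA from micro-dissected dentate gyri of wild-type male C57Black6 mice aged 8 to 10 weeks, with no treatment or second genotype named. The table gave 1 value per gene for all 3 libraries together, in FPKM, a fragment count scaled to transcript length and to the number of mapped fragments. No replicate spread, standard deviation or test is therefore available for any value, the depth is unknown, and differences between genes are given as sizes only.

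Corticosterone, the main glucocorticoid of the mouse, binds a high-affinity receptor, the mineralocorticoid receptor encoded by Nr3c2, and a lower-affinity one, the glucocorticoid receptor encoded by Nr3c1. Both are ligand-activated transcription factors that are held ready for hormone by HSP90 and its cochaperones, and both can bind DNA at paired half-sites. The hippocampus is known for carrying both receptors together, and the intracellular enzymes 11beta-hydroxysteroid dehydrogenase type 1 and type 2 regenerate or inactivate the hormone before it reaches them. FKBP5 lowers the hormone affinity of the glucocorticoid receptor and its gene is itself induced by glucocorticoids, so that the gene takes part in a feedback loop.

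Of the 8 genes, 7 stood above 10 FPKM and 1, Hsd11b2, was listed at 0. Among all 20135 protein-coding names, 30.8% reached 10 FPKM and 24.1% were listed at 0. The median of the 8 genes was 38.9 FPKM, against 2.46 FPKM for all protein-coding names. The order of the levels, high to low, was Fkbp4, Fkbp5, Hsd11b1, Tsc22d3, Nr3c2, Sgk1, Nr3c1 and Hsd11b2. The highest, Fkbp4, exceeded the lowest gene above 0, Nr3c1, by 5.38-fold. Hsd11b1, Tsc22d3 and Nr3c2 lay within a narrow band from 37.9 to 41.0 FPKM, and with no spread between libraries their order among themselves cannot be settled. It can also depend on transcript length, if each value belongs to the listed transcript, which the sources used here do not state. With levels rescaled from the listed transcript to the longest of each gene, Nr3c2 was at 37.9 FPKM, Hsd11b1 at 28.1 FPKM and Tsc22d3 at 21.6 FPKM, so that Nr3c2 came first of these 3. Libraries of whole tissue do not separate fewer cells of a type from less RNA per cell, and which cells carried each transcript was not tested.

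**Figure D1:**
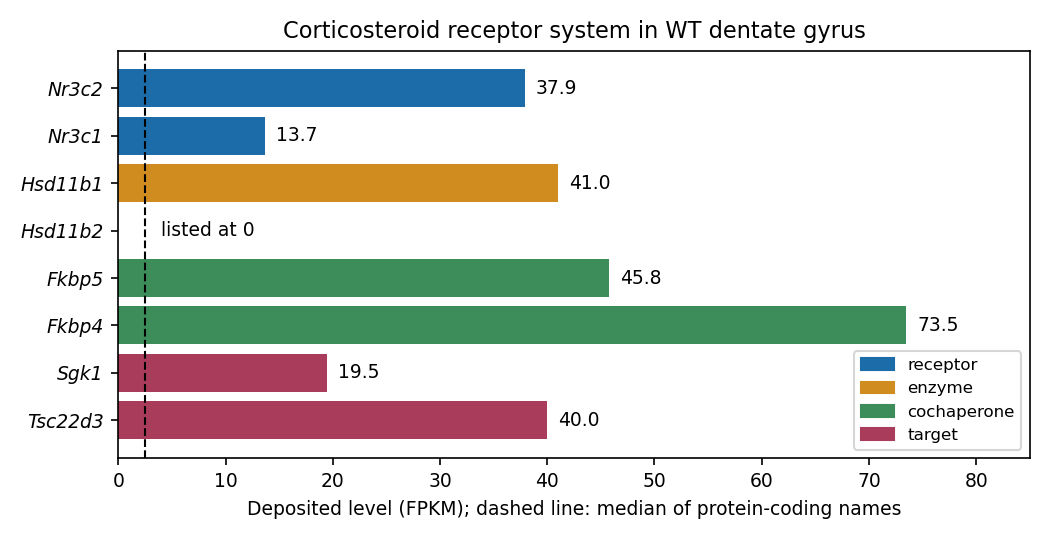
Deposited level of each of the 8 genes in FPKM (horizontal axis, from 0), coloured by role, with 1 value for the group of 3 libraries and so no error bar. The bars of 7 genes pass 10 FPKM, Fkbp4 is longest at 73.5 FPKM, Hsd11b2 is listed at 0, and the dashed line marks the protein-coding median of 2.46 FPKM.

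The tissue label was checked against markers. The granule cell markers Prox1, C1ql2, C1ql3, Calb1, Dsp and Tdo2 were all above 10 FPKM, led by C1ql2 at 111 FPKM. Markers of other cells were present too, and the highest of each list was Slc1a2 at 267 FPKM for astrocytes, Mbp at 261 FPKM for oligodendrocytes, Sst at 109 FPKM for interneurons, C1qb at 38.9 FPKM for microglia and Cldn5 at 7.96 FPKM for endothelium. Pcp4 led the joint CA2 and CA3 list at 341 FPKM, against 41.5 FPKM for the next gene of that list. Whether granule cells also carried Pcp4 was not tested. Wfs1 led the CA1 list at 8.81 FPKM. The list medians were 61.1 FPKM for granule cells, 29.2 FPKM for CA2 and CA3, 3.53 FPKM for CA1 and 10.7 FPKM for interneurons. For astrocytes, oligodendrocytes, microglia and endothelium they were 140, 30.8, 26.7 and 1.78 FPKM. The choroid plexus list summed to 8.27 FPKM over 5 genes, led by Kl at 6.06 FPKM, with Folr1 and Prlr listed at 0. Prlr had a retained-intron form as its listed transcript. The part of these cell types in the levels below was not tested.

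Nr3c2, the mineralocorticoid receptor gene, was at 37.9 FPKM, which placed it above 90.7% of protein-coding names. Nr3c1, the glucocorticoid receptor gene, was at 13.7 FPKM, above 75.0% of them. The ratio of Nr3c2 to Nr3c1 was 2.77, a difference of 1.46 on the log2(FPKM + 0.1) scale. In mm9 coordinates the listed transcript of Nr3c2 spanned 79423671 to 79768911 on the plus strand of chromosome 8, a 345.2 kb locus. That of Nr3c1 spanned 39570199 to 39650328 on the minus strand of chromosome 18. In GENCODE M21 both listed transcripts were the longest coding form of their gene, 5916 nt with 9 exons for Nr3c2 and 6436 nt with 9 exons for Nr3c1, so the receptor ratio did not move when levels were rescaled from listed to longest transcript. Much of either transcript was untranslated, with a 3' UTR of 2485 nt in Nr3c2 and 3940 nt in Nr3c1.

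The coding sequences of the receptors were 61.4% identical over 2347 aligned bases. Identity was highest, at 79.3%, in the window of 150 bases from base 1831 to base 1980 of the Nr3c2 coding sequence. The longest stretch of identical bases in the alignment was 17, which bears on how far reads of the 2 genes could be confused. Both stood above the 3 other steroid hormone receptor genes that were compared. The progesterone receptor gene Pgr was at 2.57 FPKM, with a retained-intron form as its listed transcript. The estrogen receptor gene Esr1 was at 0.320 FPKM. Esr2 was listed at 0, with a form marked for nonsense-mediated decay as its listed transcript.

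Hsd11b1, whose enzyme regenerates active corticosterone from its inert 11-keto form, was at 41.0 FPKM, above 91.6% of protein-coding names. Hsd11b2, whose enzyme inactivates corticosterone and protects the mineralocorticoid receptor in kidney, was listed at 0. Because a 0 in such a table can be a failed estimate, no fold is given for this pair. Fkbp1a of the FKBP family, which encodes the widely expressed FKBP12, was listed at 0 as well. Whether either 0 is a failed estimate was not tested. The listed Hsd11b2 transcript was coding, 1840 nt long with 5 exons, and spanned 108042646 to 108047884 on chromosome 8 in mm9, with no overlapping entry of another gene. The listed Hsd11b1 transcript was coding, 1355 nt long with 7 exons, and spanned 195047824 to 195090248 on chromosome 1. Entries of 2 genes on the opposite strand overlapped that span, and both were listed at 0.

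H6pd, which supplies the cofactor that drives the Hsd11b1 enzyme in the reducing direction, was at 0.322 FPKM, and the ratio of Hsd11b1 to H6pd was 127 without a pseudocount and 90.5 with levels rescaled to the longest transcripts. The log2 difference of this pair was 6.60 with a pseudocount of 0.1 FPKM and 4.99 with 1 FPKM. Of the 8 other steroid-handling genes, H6pd included, 4 reached 1 FPKM and 2 were listed at 0. The highest were Cyp7b1, a steroid and oxysterol hydroxylase, at 17.0 FPKM and Srd5a1, a steroid 5alpha-reductase, at 3.08 FPKM. Serpina6, the gene of the plasma corticosteroid-binding globulin, was listed at 0, as was Srd5a2. Of the 7 genes for making corticosteroids from cholesterol, Star was at 3.13 FPKM and Cyp11a1 at 2.06 FPKM. The other 5, namely Hsd3b1, Cyp17a1, Cyp21a1, Cyp11b1 and Cyp11b2, were listed at 0.

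Fkbp5 was at 45.8 FPKM, above 92.7% of protein-coding names. Fkbp4, whose product FKBP52 favours hormone binding and nuclear transport of the receptor, was at 73.5 FPKM, above 96.2% of them. The ratio of Fkbp5 to Fkbp4 was 0.623, a difference of -0.68 on the log2(FPKM + 0.1) scale. Both cochaperone genes stood above both receptor genes. The ratio to Nr3c1 was 3.35 for Fkbp5 and 5.38 for Fkbp4, and the ratio to Nr3c2 was 1.21 for Fkbp5 and 1.94 for Fkbp4. The listed transcript of Fkbp5 was a coding form of 3543 nt with 11 exons, spanning 28536040 to 28623094 on chromosome 17. The listed transcript of Fkbp4, spanning 128379753 to 128388695 on chromosome 6, was a retained-intron form of 2678 nt, so its FPKM carries the doubt whether it belongs to the gene or to that form.

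The coding sequences of Fkbp5 and Fkbp4, 1368 and 1374 bases long, were 63.5% identical over 1341 aligned bases, with no identical stretch over 13 bases. Within a family of 15 FKBP genes, Fkbp5 ranked 4 and Fkbp4 ranked 3 by level. Fkbp5 held 10.1% and Fkbp4 16.2% of the family's summed FPKM. Above them were Fkbp8, a mitochondria-anchored member, at 160 FPKM and Fkbp3, a nuclear member, at 82.0 FPKM. Of the 13 other family members, 10 reached 1 FPKM, and Fkbp1a and Fkbp6 were listed at 0.

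All 11 other genes of the receptor chaperone list exceeded 10 FPKM, with a median of 54.6 FPKM. Fkbp5 stood above 4 of them and Fkbp4 above 8. The cytosolic HSP90 gene Hsp90ab1 led at 548 FPKM and the constitutive HSP70 gene Hspa8 followed at 274 FPKM. Ppid, which encodes the cyclophilin cochaperone that competes for the same place on HSP90, was lowest at 16.9 FPKM, below Fkbp5 and Fkbp4. The listed transcript of Ppid was a retained-intron form, so its level and rank carry the same doubt as for Fkbp4. Nr3c2 stood below 9 of the 11 chaperone genes and Nr3c1 below all 11.

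**Figure D2:**
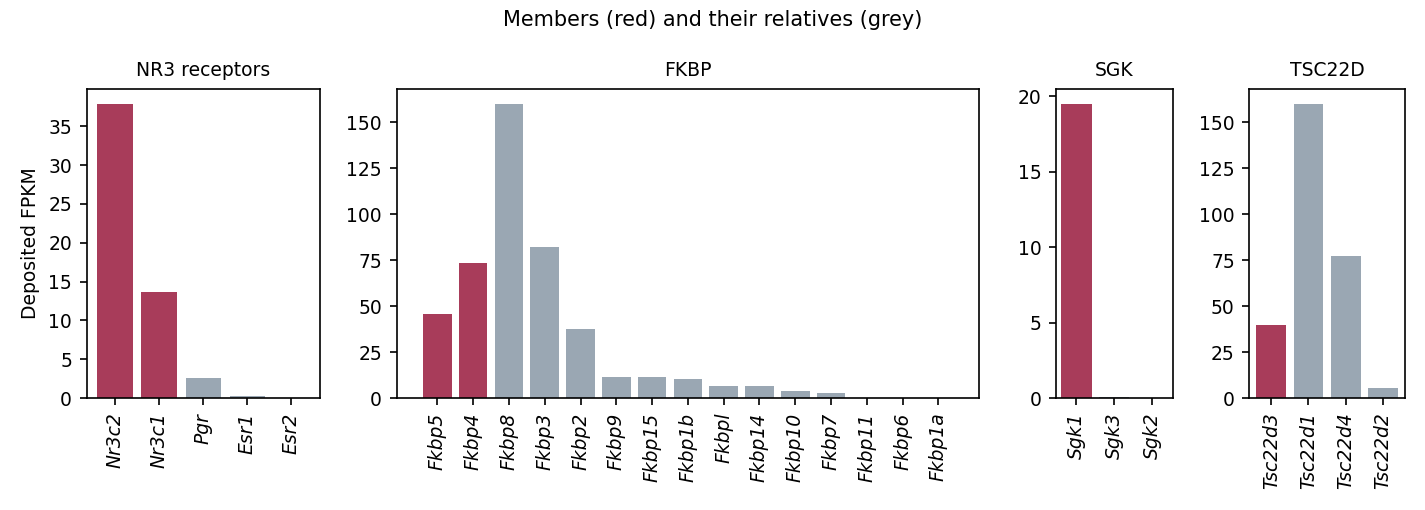
Deposited FPKM (vertical axis, from 0, scaled separately in each panel) of the members in red and their relatives in grey, by gene family. Nr3c2 and Nr3c1 stand above the other steroid receptor genes shown, Sgk1 above Sgk3 and Sgk2, whereas Fkbp5 and Fkbp4 stand below Fkbp8 and Fkbp3, and Tsc22d3 below Tsc22d1 and Tsc22d4.

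Sgk1, a kinase gene known as an early target of both corticosteroid receptors, was at 19.5 FPKM, above 81.2% of protein-coding names. Tsc22d3, which encodes the glucocorticoid-induced leucine zipper GILZ, was at 40.0 FPKM, above 91.4% of them. The ratio of Sgk1 to Tsc22d3 was 0.486, a difference of -1.04 on the log2(FPKM + 0.1) scale. The listed Tsc22d3 transcript of 1552 nt was 0.54 of the gene's longest. With levels rescaled to the longest transcript of each gene the ratio was 0.902. This rescaling applies only if each value belongs to the listed transcript, which is not known. The listed Sgk1 transcript, 3096 nt with 14 exons, was the longest of 13 in GENCODE M21 and spanned 21601990 to 21719699 on chromosome 10 in mm9. That of Tsc22d3 had 4 exons and spanned 137074801 to 137135198 on the X chromosome.

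Sgk1 carried nearly all of the FPKM of its kinase family, 99.7% of the sum. Its relative Sgk3 was at 0.0489 FPKM, and Sgk2 was listed at 0. A 0 can be a failed estimate, so the share of Sgk1 is uncertain too. The ratio of Sgk1 to Sgk3 was 398 without a pseudocount, and the log2 difference ran from 4.29 with a pseudocount of 1 FPKM to 8.37 with 0.01 FPKM, so its size is uncertain. The upstream and downstream partners of the kinase were present, with all 6 genes of that list at 1 FPKM or more. They were led by Nedd4l, the ubiquitin ligase gene whose product SGK1 phosphorylates, at 44.2 FPKM and Pdpk1, the activating kinase gene, at 23.5 FPKM, and the lowest was the mTOR complex gene Rictor at 4.71 FPKM. Tsc22d3 ranked 3 of 4 in its family. Its ratio to Tsc22d1, at 160 FPKM, was 0.251, its ratio to Tsc22d4, at 77.5 FPKM, was 0.517, and Tsc22d2 was lowest at 5.60 FPKM. With levels rescaled to the longest transcript of each gene, the ratio of Tsc22d3 to Tsc22d1 was 0.135.

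Start regions were examined for the palindrome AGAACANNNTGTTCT, the textbook binding sequence of both receptors, and for its half-sites AGAACA and TGTTCT. Each start was represented by 300 bases from RefSeq (build GRCm38.p6), 250 before and 50 from the start on. Since TGTTCT is the reverse complement of AGAACA, both strands were covered, and each palindrome holds a pair of half-sites. Windows were found for 6 of the 8 genes, 13 windows in all, and Nr3c1 and Hsd11b2 matched none. A half-site was present in 4 of the 13 windows, 3 of Sgk1 and 1 of Tsc22d3, against 19.0% of all 32851 windows. Sgk1 had 6 windows, and of the 53 genes with 6 or more windows 64.2% held a half-site in at least 1. Tsc22d3 had 3 windows, and of the 721 genes with 3 windows 39.7% held one. The windows of Nr3c2, Hsd11b1, Fkbp5 and Fkbp4 held neither half-site, which says only that these letters are not in these windows.

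Counted by gene, the full palindrome was present in 0.0111% of genes with a window. Among the 53 genes with 6 or more windows the share was 1.89%, which is Sgk1 alone. It is therefore no background separate from Sgk1. Counted by window, the palindrome was present in 3 of the 32851 windows (0.00913%), those of Sgk1, Acnat2 and Gm35041. In Sgk1 it read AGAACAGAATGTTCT at chr10:21993701-21993715 on the plus strand, 189 to 175 bases before the fifth of 6 RefSeq starts. A looser form of the palindrome, GNACANNNTGTNC, was present in 0.475% of all windows and in the same single member window. A match in letters is not a binding site, and no binding was measured. The windows with a half-site are shown here from 250 bases before the start up to the start or the first annotated exon base, in lower case with the half-sites in capitals. They are Sgk1 start 5 at chr10:21993640-21993889, Sgk1 start 4 at chr10:21991973-21992222 and Sgk1 start 1 at chr10:21881934-21882183, all on the plus strand, and Tsc22d3 start 1 at chrX:140600660-140600772 on the minus strand.
Sgk1 start 5: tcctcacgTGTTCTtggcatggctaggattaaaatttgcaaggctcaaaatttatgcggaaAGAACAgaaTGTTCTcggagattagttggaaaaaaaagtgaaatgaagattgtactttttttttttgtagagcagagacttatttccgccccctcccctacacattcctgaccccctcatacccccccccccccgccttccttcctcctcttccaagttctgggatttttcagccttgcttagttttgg
Sgk1 start 4: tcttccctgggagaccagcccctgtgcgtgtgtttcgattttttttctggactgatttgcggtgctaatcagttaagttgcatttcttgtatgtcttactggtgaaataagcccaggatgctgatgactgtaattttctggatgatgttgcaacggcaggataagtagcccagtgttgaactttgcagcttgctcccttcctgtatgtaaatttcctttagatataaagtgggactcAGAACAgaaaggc
Sgk1 start 1: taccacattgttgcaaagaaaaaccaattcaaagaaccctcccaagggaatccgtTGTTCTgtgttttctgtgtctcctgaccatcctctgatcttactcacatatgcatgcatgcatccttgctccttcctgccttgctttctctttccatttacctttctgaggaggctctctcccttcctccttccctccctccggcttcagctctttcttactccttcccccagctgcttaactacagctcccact
Tsc22d3 start 1: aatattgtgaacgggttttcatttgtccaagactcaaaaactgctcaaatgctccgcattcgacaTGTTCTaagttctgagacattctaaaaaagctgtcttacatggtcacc

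The Sgk1 transcript listed in the table began exactly at start 1, whose window held 1 half-site, at 195 to 190 bases before it. Start 5, with the palindrome, lay 111706 bases downstream of start 1 and coincided with the first base of transcript Sgk1-202. Start 6, which coincided with that of Sgk1-201, lay 112482 bases downstream of start 1. The single deposited value for Sgk1 does not divide the 19.5 FPKM among these starts. In Tsc22d3 the half-site stood 185 to 180 bases before start 1, which lay 137 bases downstream of the first base of the listed transcript. The half-site thus also stood before that first base, and nearer to it than to start 1.

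The windows differed in CpG content, the sites at which mammalian DNA is most often methylated. Fkbp5 held 32 CpG and Fkbp4 33 CpG in 300 bases, more than 90.5% and 91.4% of all windows, whose median was 7. Nr3c2 held 17 CpG and Hsd11b1 held 6 CpG. Within Sgk1 the number ran from 3 CpG at start 1 to 28 CpG at start 6, and within Tsc22d3 from 3 CpG at start 2 to 16 CpG at start 3. The RefSeq start lay 2558 bases from the first base of the listed transcript in Nr3c2 and 21715 bases from it in Hsd11b1, against 0 bases in Fkbp5 and 21 bases in Fkbp4. The cochaperone start regions are shown, up to the start or the first annotated exon base, with each CpG in capitals, for Fkbp5 at chr17:28486150-28486399 and Fkbp4 at chr6:128438678-128438906, both on the minus strand.
Fkbp5 start 1: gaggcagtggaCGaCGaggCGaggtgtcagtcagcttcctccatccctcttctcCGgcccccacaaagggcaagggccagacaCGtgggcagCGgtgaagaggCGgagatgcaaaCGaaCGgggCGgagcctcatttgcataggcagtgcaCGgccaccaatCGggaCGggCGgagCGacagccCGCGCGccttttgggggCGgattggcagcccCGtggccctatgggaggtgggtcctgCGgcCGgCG
Fkbp4 start 1: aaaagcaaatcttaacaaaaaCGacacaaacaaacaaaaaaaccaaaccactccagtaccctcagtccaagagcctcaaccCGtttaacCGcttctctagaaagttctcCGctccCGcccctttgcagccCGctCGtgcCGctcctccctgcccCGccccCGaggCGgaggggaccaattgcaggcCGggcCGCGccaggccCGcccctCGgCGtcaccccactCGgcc

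**Figure D3:**
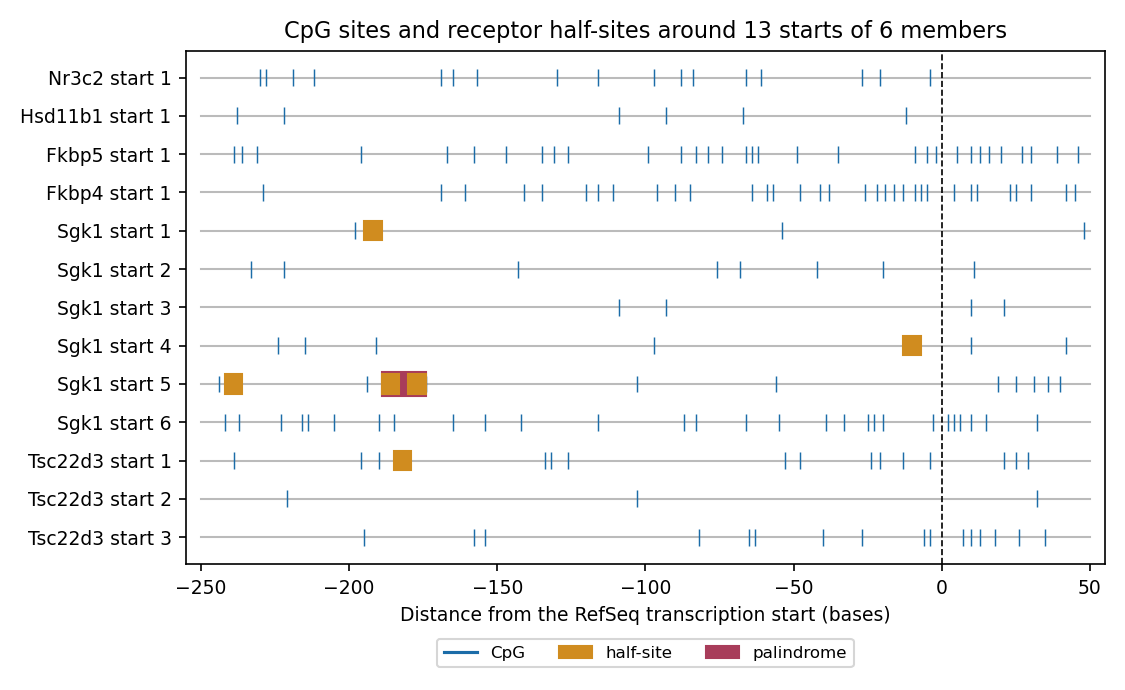
Positions of CpG sites (blue ticks), half-sites (orange) and the palindrome (red) in the 13 start windows of 6 genes, as distance in bases from the RefSeq start (dashed line). The palindrome lies 189 to 175 bases before Sgk1 start 5, and CpG ticks are densest at Fkbp5, Fkbp4 and Sgk1 start 6.

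Other genes known to be induced by glucocorticoids were given as a list of 21, of which 19 reached 1 FPKM and 13 reached 10 FPKM, with a median of 13.9 FPKM. Sgk1 stood above 13 of the 21 and Tsc22d3 above 16, while Fkbp5, itself an induced gene, stood above 17. The metallothionein genes Mt1 and Mt2 led the list at 492 and 289 FPKM, and Nedd9, a scaffold protein gene, and Lcn2, the lipocalin 2 gene, were listed at 0. With no hormone-treated or adrenalectomised group in the series, these levels describe 1 state of the tissue and not a response to hormone. Many of these genes also have other inducers.

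Coactivator and corepressor genes of the receptors were all at 1 FPKM or more, with 4 of 9 at 10 FPKM or more. They were led by the corepressor gene Ncor1 at 63.0 FPKM and the chromatin remodeller gene Smarca4 at 32.7 FPKM, and the steroid receptor coactivator gene Ncoa3 was lowest at 4.27 FPKM. Nr3c2 stood above 8 of the 9 and Nr3c1 above 6.

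Of 6 epithelial transport genes through which aldosterone acts in kidney, 2 reached 1 FPKM. They were Nedd4l at 44.2 FPKM and Scnn1a, a subunit gene of the epithelial sodium channel, at 5.43 FPKM, whereas the list median was 0.0512 FPKM and the potassium channel gene Kcnj1 was listed at 0. Peptide and receptor genes of the stress axis were low. None of 10 reached 10 FPKM, with Crhr1, a receptor gene for corticotropin-releasing hormone, highest at 2.50 FPKM, the vasopressin gene Avp at 1.32 FPKM and the urocortin gene Ucn listed at 0. Counted over all 12 lists, 68 of 98 different genes reached 1 FPKM and 41 reached 10 FPKM, against 56.4% and 30.8% of protein-coding names.

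**Figure D4:**
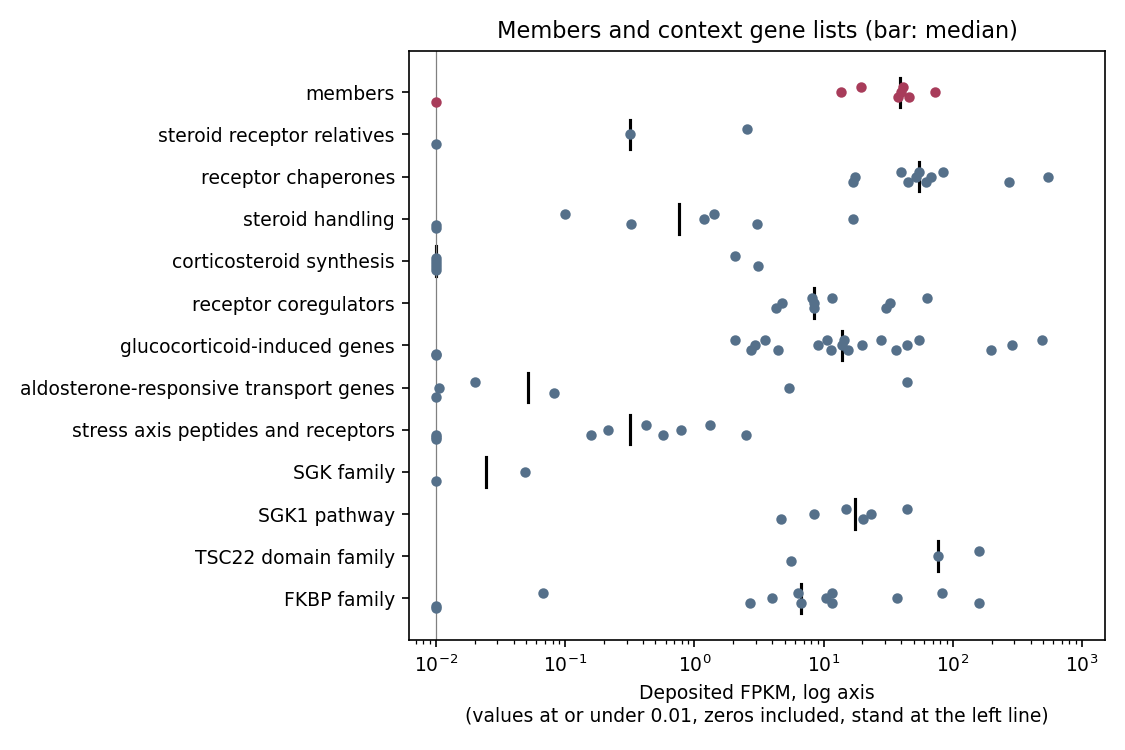
Deposited FPKM on a log axis of the 8 members (red, top row) and of the genes of 12 context lists (blue), each point a gene and each vertical bar the median of its row. The member median of 38.9 FPKM lies below those of the chaperone list at 54.6 FPKM and the TSC22 domain list at 77.5 FPKM and above those of the other lists.

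**Figure D5:**
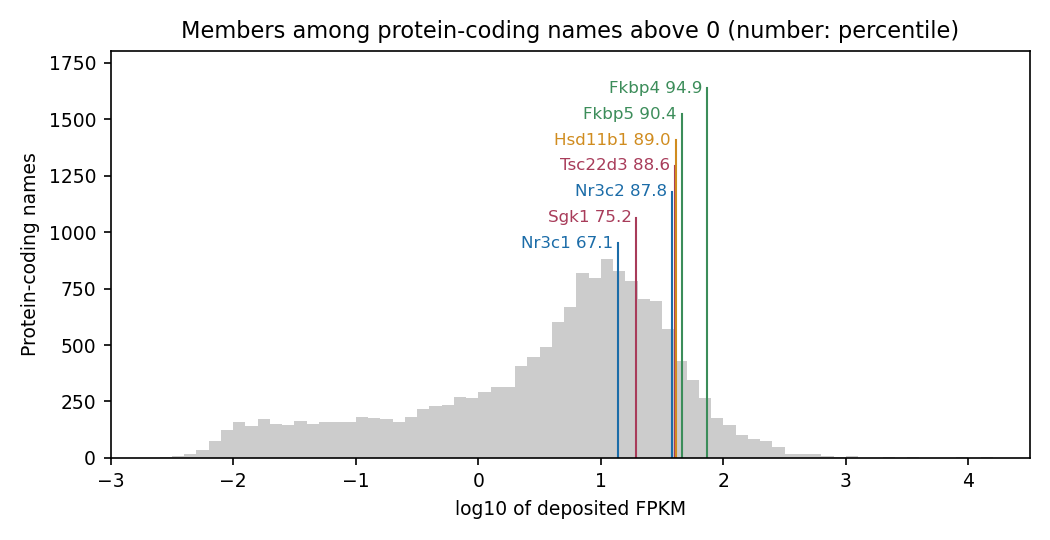
Number of protein-coding names above 0 by level, with the 7 members above 0 as lines, each labelled with its percentile among those 15273 names. The lines run from Nr3c1 at 67.1 to Fkbp4 at 94.9, all to the right of the median of 6.68 FPKM.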

How the data were processed

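Dentate gyrus RNA of 3 wild-type mouse libraries was poly(A)-selected, reverse transcribed with random primers and sequenced, per the labels' protocols, which describe no step that marks the strand. TopHat and Cufflinks with mm9 and NCBIM37 were named, per the submitters' processing notes, with versions not given in the sources used here. Values in the deposited table are FPKM, made by the authors, in 1 column for the group, with no statement of how the 3 libraries were combined. Values per library were not analysed here, so the depth is unknown and no interval or detection limit is given. A value was present in 36469 of 37681 rows, and the other 1212 were left out. Rows with a shared symbol were summed; none of the 8 genes shared one.

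Levels were ranked by percentile among protein-coding names (the planned set, all names above 0, is given in the closing section), pairs were compared as ratios without a pseudocount and as differences on the log2(FPKM + 0.1) scale, and gene lists by counts and medians. No test was run. Coordinates are those of the table, starts converted to 1-based numbers. Gene types and transcript forms came from GENCODE M21 by Ensembl identifier. blastn 2.17.0 of the longest coding transcripts found no copy with 90% identity over 100 bases, apart from 155 bases of Nr3c2 shared with the lncRNA Gm10649, at 2.08 FPKM, which starts from the opposite strand. Coding sequences were aligned globally with Biopython 1.88 in place of the planned protein alignment. Motif counting was tested on simulated sequences of C and G with a planted palindrome, and the percentile on a known rank. Such sequences hold no other half-site, so false matches in real sequence were not tested. Python 3.11.15, pandas 2.3.3, numpy 2.4.6 and matplotlib 3.10.9 were used.

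The members, lists and pairs were chosen with earlier results of these data known. The genes named are the 8 members, both genes of each pair, lists of up to 4 genes in full, the 2 highest and the lowest of longer lists and the highest of each marker list. The granule cell markers other than C1ql2, the corticosteroid synthesis genes at 0, Srd5a2, Lcn2, Fkbp6, Folr1, Prlr and the other palindrome genes were named after their values were seen. Some genes of the lists are not reported here. The alternatives changed the pseudocount, the treatment of shared symbols, the scale, the reference set of the percentiles, transcript length, the list summary and the start window.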

Additional observations from a re-analysis of the deposited data

How the results depend on the processing

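With 1 value per gene, leaving out a library was not possible, and no paired analysis was possible because the values form 1 group with no second condition. A pseudocount added to both values cannot reverse an order, and no member shared a symbol. Only the rescaling to the longest transcript could change a direction. It could not for pairs of Nr3c2, Nr3c1 and Fkbp4, each listed by its longest form. None of the 7 planned ratios between members above 0 changed direction under any alternative run. Of all 21 pairs of these members, compared after the data were seen, 2 took the other order with levels rescaled from the listed to the longest transcript, Hsd11b1 to Nr3c2 at -0.43 and Tsc22d3 to Nr3c2 at -0.81 on the log2 scale. With a pseudocount of 1 FPKM, the log2 difference was 1.41 for Nr3c2 to Nr3c1, -0.67 for Fkbp5 to Fkbp4, 2.35 for Fkbp4 to Nr3c1, 0.94 for Fkbp4 to Nr3c2, 1.67 for Fkbp5 to Nr3c1 and -1.0 for Sgk1 to Tsc22d3. With 0.01 FPKM it was 1.47 for Nr3c2 to Nr3c1 and 2.43 for Fkbp4 to Nr3c1. With the rescaled levels it was -0.81 for Fkbp5 to Fkbp4, 1.61 for Fkbp5 to Nr3c1, 0.15 for Fkbp5 to Nr3c2 and -0.15 for Sgk1 to Tsc22d3, the last against -1.04 as deposited. The number of members at 10 FPKM or more was 7 on every scale tried. It could not have changed, because the other scales raised every value above 0 and no member shared a symbol. Within the last 150 bases of the start windows, 1 member window held a half-site, against 4 in 300 bases and against 9.62% of all windows at that length, and the looser palindrome, chosen after the data were seen, was in 1. The shorter window holds fewer bases by construction, and for the looser palindrome the cause was not tested. Among all names above 0, the planned set, the percentiles of the 7 members above 0 ran from 71.2 for Nr3c1 to 95.0 for Fkbp4. Of the other values, 60 moved, 31 did not and 2 reversed, as given above: percentiles fell against names at 1 FPKM or more, for Nr3c1 to 56.6, and the aldosterone list median was 24.8 FPKM without members under 0.1 FPKM. The unknown depth limits low values most, and the values at 0 cannot be read as absence.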
